A study of Mus musculus with 10 samples.

Results

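The G-protein-coupled receptors Ffar2, Ffar4, Hcar1, Hcar2, Adora1 and Adra2a were followed at the transcript level in visceral white adipose tissue (WAT) of Mof+/+ and Mof+/- mice. The 6 genes were chosen by name, as receptors that restrain lipolysis or sense fatty acids, and all 6 were found among the 47937 genes counted in each library. The study sequenced polyA RNA of 10 libraries, 3 Mof+/+ and 3 Mof+/- from mice on standard diet (SD) and 2 Mof+/+ and 2 Mof+/- from mice on high-fat diet (HFD). All mice are labelled C57BL/6, by the methods after backcrossing to C57BL/6J, and Mof+/- mice had 1 functional copy of Mof in every tissue, so that the model is not restricted to fat cells. By the sample descriptions the SD mice were 8 weeks old, whereas the HFD mice were 27 weeks old and had been on HFD for 20 weeks. Diet and age therefore cannot be told apart in any comparison between diets. The study's methods name male mice of another age range for the WAT libraries, and its account of the feeding gives a longer HFD. Nothing states that mice were pooled, and p-values rest on the spread between these libraries. Values are given as CPM (a gene's counts scaled to a common total over all genes of the library). A difference was called when its adjusted p was under 0.05.

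Hcar1, Hcar2, Adora1 and Adra2a share one output. Adipocytes release fatty acids when catecholamines raise cyclic AMP through Gs-coupled beta-adrenergic receptors, and receptors coupled to Gi lower cyclic AMP and so restrain the lipases. Hcar1 is the receptor for lactate and Hcar2 the receptor for the ketone body 3-hydroxybutyrate and for niacin, both known in adipocytes for lowering lipolysis. Adora1 responds to adenosine and Adra2a to catecholamines, again through Gi. Ffar2 binds short-chain fatty acids such as acetate, and Ffar4 (also known as Gpr120) binds long-chain fatty acids. Hcar2 and Ffar2 are also known from neutrophils and macrophages, and Ffar4 from macrophages.

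Hcar1 and Hcar2 are neighbours and paralogs, so the question arose whether their reads could be confused. In the GENCODE M21 annotation of GRCm38, Hcar1 (ENSMUSG00000049241.5) lies on the minus strand at chr5:123876736-123880020 and Hcar2 (ENSMUSG00000045502.6) on the same strand at chr5:123863570-123865499, each as 1 exon, at a distance of 11237 bases from the last base of Hcar2 to the first of Hcar1 along the chromosome. Their coding sequences of 1056 and 1083 bases were identical at 64.7% of aligned positions. The transcripts shared 0 stretches of 25 bases, out of 3261 such stretches in Hcar1 and 1906 in Hcar2. The most similar 90 bases of the coding sequences, shown here because this is where reads of the pair come closest, had 72 identical bases (80%). Capitals mark the bases that differ. The stretch covers chr5:123878992-123879081 in Hcar1 and chr5:123864801-123864890 in Hcar2, both minus strand of GRCm38, inside the coding exon.
Hcar1: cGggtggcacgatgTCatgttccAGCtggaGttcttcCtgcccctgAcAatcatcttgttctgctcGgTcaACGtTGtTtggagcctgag
Hcar2: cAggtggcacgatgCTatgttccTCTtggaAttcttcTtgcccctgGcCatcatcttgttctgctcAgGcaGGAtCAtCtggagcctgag
The differing bases are spread along the stretch rather than gathered at one end.

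The other members lie apart. Ffar2 (ENSMUSG00000051314.11) spans chr7:30818348-30823775 on the minus strand and Ffar4 (ENSMUSG00000054200.6 in the files) spans chr19:38097071-38114263 on the plus strand, while Adra2a (ENSMUSG00000033717.5 in the files) spans chr19:54044151-54048982 on the plus strand. Adora1 (ENSMUSG00000042429.8) spans chr1:134199223-134235431 on the minus strand and shares 1162 exon bases with Mybph, a muscle gene on the plus strand. The library kit did not mark strand, so reads of the shared stretch cannot be given to one of the pair. Mybph itself had between 0 and 18 counts per library.

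Promoter sequences from RefSeq (GRCm38.p6) were at hand for 5 of the 6 genes, and those of Ffar2 and Hcar1 are shown because these were the receptors whose transcripts differed between the diets. Each is the 250 bases before the outermost start, on the minus strand, at chr7:30823776-30824025 for Ffar2 and chr5:123880004-123880253 for Hcar1. Both strands were searched for AGGTCA, a half-site of nuclear receptors. The E-box CACGTG was searched as well. The GC box was searched as GGGCGG. The TATA box was searched as TATAAA. No match overlapped another in these windows, and capitals mark matches.
Ffar2: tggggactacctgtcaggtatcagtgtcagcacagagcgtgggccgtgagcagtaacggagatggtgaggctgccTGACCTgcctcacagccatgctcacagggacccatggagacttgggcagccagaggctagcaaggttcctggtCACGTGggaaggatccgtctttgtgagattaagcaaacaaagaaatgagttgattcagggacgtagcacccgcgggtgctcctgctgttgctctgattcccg
Hcar1: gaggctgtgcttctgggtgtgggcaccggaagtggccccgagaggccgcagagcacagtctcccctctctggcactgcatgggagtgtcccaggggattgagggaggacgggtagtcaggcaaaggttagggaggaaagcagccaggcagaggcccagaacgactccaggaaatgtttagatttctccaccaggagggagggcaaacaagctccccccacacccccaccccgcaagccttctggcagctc
The Ffar2 window held AGGTCA, read on the opposite strand, and CACGTG, while the Hcar1 window held none of the 4 words. Of the promoters not shown, those of Ffar4 and Adora1 held the GC box, and that of Adra2a held the E-box, the GC box and the TATA box. Across 32851 promoter windows of the same length, 14% held the nuclear receptor half-site, 6.02% the E-box, 32.7% the GC box and 12.4% the TATA box.

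Total counts ranged from 1044355 in HFD Mof+/- replicate 1 to 17171947 in SD Mof+/- replicate 1. Mof itself, listed as Kat8, had 20.4 to 21.5 CPM in SD Mof+/+, 11.5 to 18.8 in SD Mof+/-, 18.1 and 19.2 in HFD Mof+/+, and 20.1 and 10.5 in HFD Mof+/-. The Mof+/- libraries were thus below the Mof+/+ libraries on SD, whereas HFD Mof+/- replicate 1, at 20.1 CPM from 21 counts, was not below the HFD Mof+/+ libraries. That library stood apart from the rest. It had 12.1% of 7152 well expressed genes at 0, where no other library exceeded 0.362%, and its skeletal muscle markers summed to 78202 CPM against 49.8 to 132 CPM in the SD and HFD Mof+/+ libraries and 1905 CPM in HFD Mof+/- replicate 2. The 12 adipocyte markers were all detected in every library. Xist, the transcript of the inactive X chromosome, had 390 to 2388 counts in the SD Mof+/- libraries, in which the 4 Y-linked genes examined had 0, and Xist had 0 counts in the other 7 libraries, all of which had counts of Y-linked genes. Sex thus cannot be told apart from genotype on SD, nor from diet in Mof+/-, nor from the interaction of genotype and diet. Inside the count tables, the headings of replicate 3 of both SD groups name the other genotype. The sample labels were followed, and the grouping by these headings is given as an alternative.

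Per length of exon, Hcar1 was the most abundant receptor of the set in SD Mof+/+ WAT and Ffar2 in HFD Mof+/+ WAT. On the TPM scale (counts per kilobase of exon, scaled to the same total in each library), the levels in SD Mof+/+ were 69.2 ± 13.0 for Hcar1, 51.5 ± 5.88 for Ffar4, 33.6 ± 3.39 for Ffar2, 25.2 ± 12.2 for Hcar2 and 24.9 ± 14.0 for Adora1 (mean ± SD, n = 3), with Adra2a last at 0 to 3.499. In that order the ranges of Ffar4 and Ffar2 were apart, as were those of Adora1 and Adra2a, and the other neighbours overlapped. In HFD Mof+/+ the TPM levels were 78.7 ± 5.81 for Ffar2, 36.0 ± 2.98 for Adora1, 29.4 ± 1.07 for Hcar1, 25.7 ± 9.97 for Ffar4, 12.4 ± 0.142 for Hcar2 and 0.406 ± 0.376 for Adra2a (mean ± SD, n = 2). There the ranges of Hcar1 and Ffar4 overlapped, and the other neighbours were apart.

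**Figure D1:**
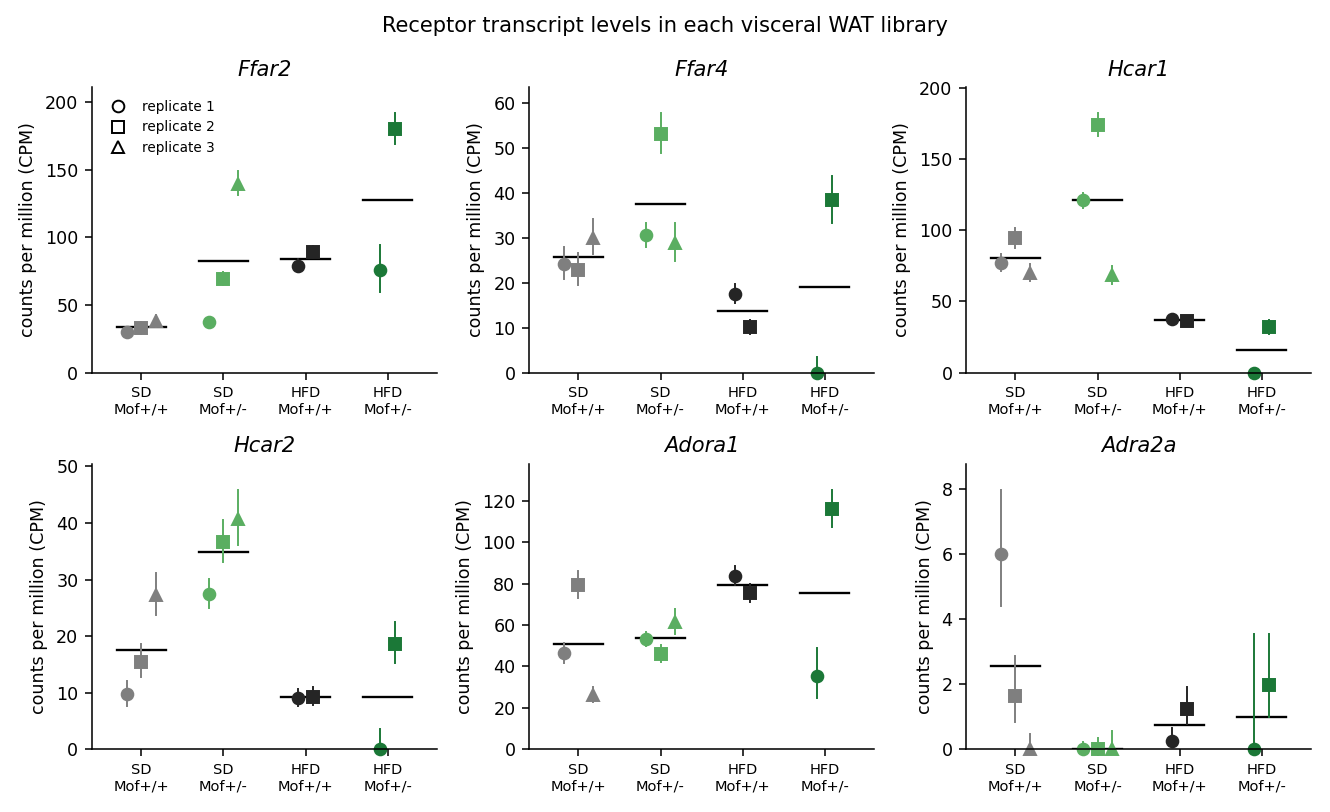
CPM of each receptor (vertical axes, linear from 0) in the 4 groups. Each point is a library, vertical lines are exact 95% binomial intervals of its count, and horizontal bars are group means. Ffar2 is at 29.8 to 37.8 CPM in SD Mof+/+ and at 79.1 and 88.9 CPM in HFD Mof+/+, while Ffar4, Hcar1, Hcar2 and Adra2a are at 0 in HFD Mof+/- replicate 1.

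The clearest differences were those between diets in Mof+/+ mice, where Ffar2 rose and Hcar1 fell on HFD. Of the 6 receptors, 2 passed the adjusted threshold in edgeR and again in DESeq2, against a background of 9.75% of 14939 genes in edgeR and 18.1% in DESeq2. At an unadjusted p under 0.05 the same 2 members were found, where 28.4% of all genes were. The libraries of the diets did not overlap for Ffar2, Ffar4, Hcar1 and Hcar2, as for 49.1% of all genes. In bulk tissue, fewer cells of a type and less RNA per cell cannot be told apart.

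Ffar2 was at 29.8, 32.7 and 37.8 CPM in SD Mof+/+ and at 79.1 and 88.9 CPM in HFD Mof+/+. Every HFD library was above every SD library, with a log2 fold change of 1.45 (SE 0.19, adjusted p = 0.0092, edgeR). Without HFD Mof+/+ replicate 1 the adjusted p was 0.0604 and without replicate 2 it was 0.149, so that neither fit called the gene, at log2 fold changes of 1.56 and 1.38. The grouping by column headings gave 0.12 (adjusted p = 0.994), and a fit of all 10 libraries gave 1.44 (adjusted p = 0.286).

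Hcar1 was at 77.1, 94.4 and 70.2 CPM in SD Mof+/+ and at 37.6 and 36.2 CPM in HFD Mof+/+. The HFD libraries were both below the lowest SD library, with a log2 fold change of -1.01 (SE 0.21, adjusted p = 0.0314, edgeR). The call was lost without SD Mof+/+ replicate 1 (adjusted p = 0.0799) or 2 (0.0531), without HFD Mof+/+ replicate 1 (0.201) or 2 (0.329), in the fit of all 10 libraries (0.711) and in the grouping by column headings (0.317), where the log2 fold changes were -0.87 to -1.14.

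Ffar4 was at 24.3, 22.9 and 30.1 CPM in SD Mof+/+ and at 17.4 and 10.1 CPM in HFD Mof+/+. The log2 fold change was -0.78 (SE 0.34, adjusted p = 0.181, edgeR), and it was -1.20 and -0.42 without HFD Mof+/+ replicates 1 and 2. Hcar2, the neighbour of Hcar1, was at 9.71, 15.5 and 27.2 CPM on SD and at 9.04 and 9.30 CPM on HFD. The lowest SD library was close to the HFD libraries, and the log2 fold change was -0.80 (SE 0.48, adjusted p = 0.322, edgeR), or -0.35 without SD Mof+/+ replicate 3. Adora1 was at 46.4, 79.4 and 26.2 CPM on SD and at 83.8 and 75.4 CPM on HFD, so that the groups overlapped (log2 fold change 0.77, SE 0.42, adjusted p = 0.275, edgeR), and it had 1.26 without SD Mof+/+ replicate 2 and 0.45 without replicate 3.

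**Figure D2:**
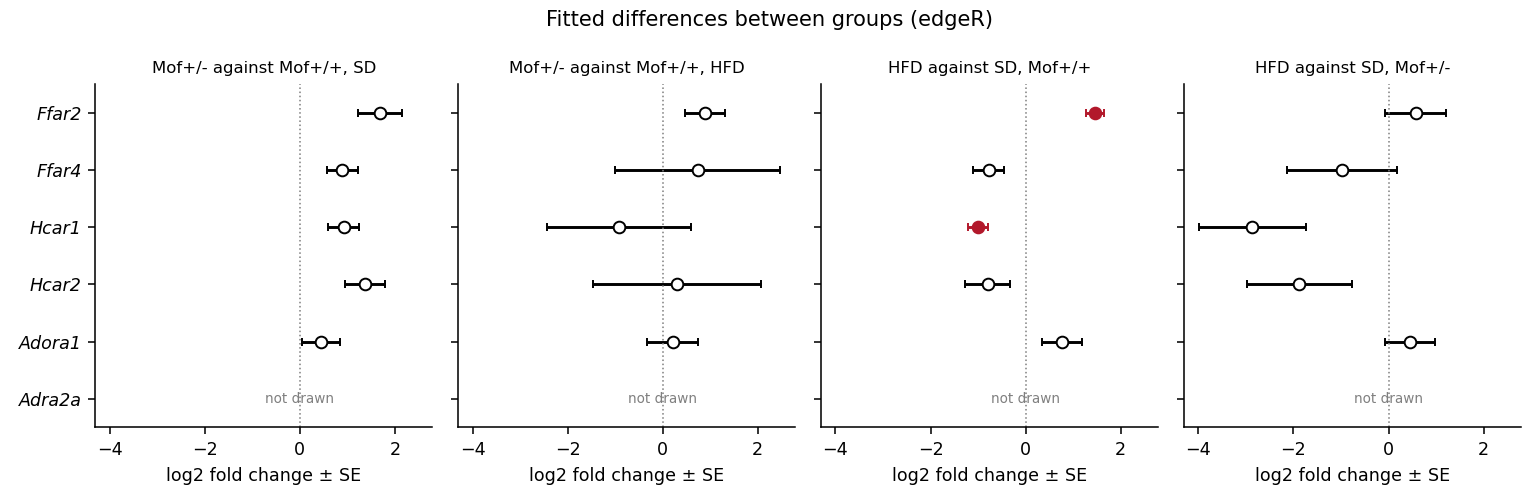
Log2 fold changes fitted by edgeR (horizontal axis, points with SE) for each receptor in the comparisons of genotype and of diet. Filled red points passed the adjusted threshold of 0.05, which were Ffar2 and Hcar1 between the diets in Mof+/+. Adra2a is not drawn because its counts are near 0.

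Markers of other cell types moved with the diet in Mof+/+ as well. The 10 macrophage markers summed to 904 to 1915 CPM in SD Mof+/+ and to 4669 and 6110 CPM in HFD Mof+/+, and 7 of the 10 were called higher. Of all genes tested, 6.02% were called higher and 3.73% lower in this comparison. Ffar2, a receptor also known from myeloid cells, amounted to 21.3, 36.2 and 19.8 counts per 1000 macrophage marker counts on SD and to 16.9 and 14.5 on HFD, so that relative to this sum the HFD libraries were the lower ones. The neutrophil markers, 8 in all, summed to 18.7 to 39.1 CPM on SD and to 40.7 and 48.6 CPM on HFD, with 3 to 5 of them at 0 in each of these libraries. The part of these cells in the Ffar2 difference was not tested.

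The adipocyte markers summed to 37343 to 46240 CPM in SD Mof+/+ and to 40311 and 36513 CPM in HFD Mof+/+, so that these ranges overlapped. Single markers went both ways, with 2 of the 12 called higher and 2 called lower, 8 of the 12 at values below 0 and a median log2 fold change of -0.66. Hcar1 amounted to 2.04, 2.04 and 1.88 counts per 1000 adipocyte marker counts on SD and to 0.932 and 0.990 on HFD. With the libraries scaled to the sum of these markers, the log2 fold change of Hcar1 was -1.05 (adjusted p = 0.0353, edgeR) and that of Ffar2 was 1.39 (adjusted p = 0.0276). Endothelial markers summed to 1151 to 2931 CPM on SD and to 425 and 542 CPM on HFD, with 3 of 8 called lower. Glial markers summed to 113.7 to 1137 CPM on SD and to 51.3 and 53.1 CPM on HFD, with 3 of 6 tested called lower, and neuron markers to 16.9 to 281 CPM and to 13.0 and 10.9 CPM, with none of 8 called. Their part in the receptor values was not tested.

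**Figure D3:**
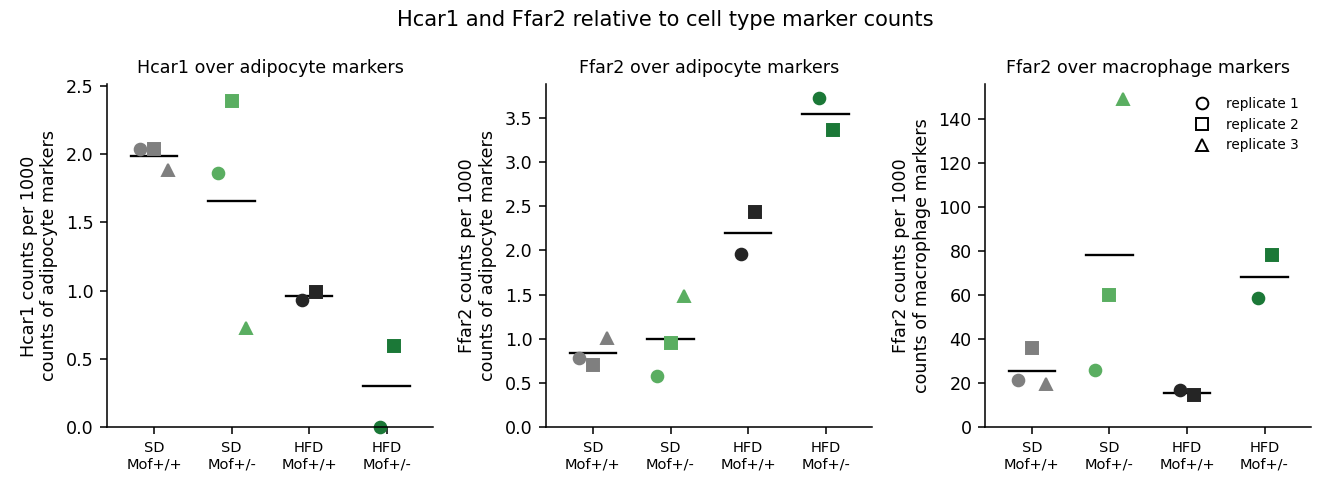
Hcar1 and Ffar2 counts per 1000 counts of the adipocyte or macrophage marker genes (vertical axes, linear from 0) in each library, with group means as bars. Hcar1 over adipocyte markers is at 1.88 to 2.04 in SD Mof+/+ and at 0.932 and 0.990 in HFD Mof+/+, while Ffar2 over macrophage markers is at 19.8 to 36.2 and at 16.9 and 14.5 in those groups.

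Between the genotypes on SD, none of the 5 receptors that had enough counts for the test passed the adjusted threshold in edgeR, where 5.24% of 13864 genes did. Of the 5, 4 (Ffar2, Ffar4, Hcar1 and Hcar2) had an unadjusted p under 0.05, which 25.7% of all genes had. DESeq2 called Ffar2 (adjusted p = 0.00806) and Hcar2 (adjusted p = 0.0354), with 13.9% of genes called. The fitted values of all 5 were above 0 in Mof+/- with TMM scaling, with a median of 0.93 against -0.07 for all genes, but scaling to the adipocyte markers gave values below 0 for Ffar4 (-0.37), Hcar1 (-0.26) and Adora1 (-0.79), left Ffar2 at 0.26 and Hcar2 at 0.04, and moved the median of all genes by -1.25 to -1.32. Of the 5, only Hcar2 had groups that did not overlap, against 40.3% of all genes. Adra2a, the member left out, was below 0 wherever an alternative fitted it. It was at -6.86 in DESeq2 (adjusted p = 0.0578) and at -7.42 without the filter on low counts (adjusted p = 0.118, edgeR). Its SD Mof+/- libraries were all at 0, so these values have no fixed size.

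Ffar2 was at 29.8, 32.7 and 37.8 CPM in Mof+/+ and at 37.7, 69.4 and 139.6 CPM in Mof+/- on SD. The Mof+/- libraries ran from the level of the highest Mof+/+ library to several times that level. The fitted log2 fold change was 1.69 with an SE of 0.47 (adjusted p = 0.0667, edgeR), it was called without SD Mof+/- replicate 1 (2.06, adjusted p = 0.0282), it was 0.996 without SD Mof+/- replicate 3 (adjusted p = 0.0942), and the grouping by column headings turned it to -0.58.

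Hcar2 was at 9.71, 15.5 and 27.2 CPM in Mof+/+ and at 27.4, 36.6 and 40.7 CPM in Mof+/-. The highest Mof+/+ library nearly met the lowest Mof+/- library, at a log2 fold change of 1.38 with an SE of 0.42 (adjusted p = 0.0829, edgeR). The grouping by column headings gave 0.39 for Hcar2. Without the filter on low counts, Hcar2 (adjusted p = 0.0271) and Ffar2 (adjusted p = 0.00289) were both called.

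Hcar1 was at 77.1, 94.4 and 70.2 CPM in Mof+/+ and at 121, 174 and 68.4 CPM in Mof+/-. Replicates 1 and 2 of Mof+/- were above all Mof+/+ libraries and replicate 3 was below all of them. Hcar1 had a log2 fold change of 0.93 with an SE of 0.32 (adjusted p = 0.118, edgeR), and without SD Mof+/- replicate 3 it was 1.19 (adjusted p = 0.0418), whereas without SD Mof+/- replicate 2 it was 0.61 (adjusted p = 0.357). Against 1000 adipocyte marker counts, Hcar1 amounted to 1.88 to 2.04 in Mof+/+ and to 1.86, 2.39 and 0.727 in Mof+/-.

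Ffar4 was at 24.3, 22.9 and 30.1 CPM in Mof+/+ and at 30.6, 53.1 and 28.8 CPM in Mof+/-. The groups overlapped, with SD Mof+/- replicate 2 well above the others (log2 fold change 0.90, SE 0.32, adjusted p = 0.120, edgeR). Adora1 was at 46.4, 79.4 and 26.2 CPM in Mof+/+ and at 53.2, 46.0 and 61.6 CPM in Mof+/-, all inside the Mof+/+ range (log2 fold change 0.44, SE 0.40, adjusted p = 0.530, edgeR), and it had 0.94 without SD Mof+/+ replicate 2 and 0.12 without replicate 3.

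Several properties of the SD libraries moved with the genotype. Of all genes tested on SD, 3.33% were called higher and 1.91% lower in Mof+/-. Adipocyte markers summed to 37343 to 46240 CPM in Mof+/+ and to 65167 to 94034 CPM in Mof+/-, with 5 of 12 called higher. Endothelial markers summed to 1151 to 2931 CPM in Mof+/+ and to 199 to 313 CPM in Mof+/-, with 6 of 8 called lower, and the 6 mesothelial markers summed to 23.8 to 59.1 CPM in Mof+/+ and to 169.8 to 349 CPM in Mof+/-, with 4 called higher. The 9 glial markers summed to 113.7 to 1137 CPM in Mof+/+ and to 38.1 to 57.2 CPM in Mof+/-, with 3 of 5 tested called lower. Neuron markers summed to 16.9 to 281 CPM in Mof+/+ and to 7.3 to 12.6 CPM in Mof+/-, with none of 5 tested called, and of 8 fibroblast and progenitor markers 2 were called higher in Mof+/-. Lymphocyte markers summed to 474 CPM in SD Mof+/+ replicate 3, the Mof+/+ library with the most Hcar2, and to 5.9 to 28.7 CPM in the other SD libraries, and the 281 CPM of neuron markers were in SD Mof+/+ replicate 2, the SD library with the most Adora1. Macrophage markers did not separate the genotypes (904 to 1915 CPM in Mof+/+ and 937.5 to 1450 CPM in Mof+/-), and Ffar2 amounted to 26, 60 and 149 counts per 1000 of their counts in Mof+/-, against 19.8 to 36.2 in Mof+/+. The part of any of these in the receptor values was not tested.

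Libraries also differed in how gene levels followed gene length. For each library, the deviation of 13161 genes from their mean over libraries was set against exon length. Spearman's rho across these genes, which are not independent, was 0.341 to 0.396 in SD Mof+/+, 0.121, -0.205 and -0.414 in SD Mof+/-, 0.077 and -0.022 in HFD Mof+/+, and -0.096 and -0.238 in HFD Mof+/-. The exon lengths of Ffar4 (1401 bases), Hcar2 (1930), Ffar2 (2790) and Hcar1 (3285) are below the median of 4384 for these genes, and those of Adra2a (4832) and Adora1 (5785) are above it. Ffar2 was highest in the 2 libraries of lowest rho, at 139.6 and 180.1 CPM, and stood at 29.8 to 37.8 CPM in the 3 libraries of highest rho. Hcar1, also below the median length, was at 68.4 and 32.0 CPM in those 2 libraries and at 70.2 to 94.4 CPM in those 3. Hcar2 was at 40.7 and 18.6 CPM and at 9.71 to 27.2 CPM. Ffar4, the shortest, was at 28.8 and 38.3 CPM and at 22.9 to 30.1 CPM. The 2 libraries of lowest rho came from different diets, and the part of gene length in the receptor values was not tested. With a correction for length, the log2 fold changes between genotypes on SD were 1.43 for Ffar2, 0.86 for Hcar2, 0.81 for Hcar1, 0.77 for Adora1 and 0.21 for Ffar4, none of them called, while between the diets in Mof+/+ Ffar2 kept 1.28 (adjusted p = 0.0118, edgeR) and Hcar1 -1.12 (adjusted p = 0.0284). On HFD between the genotypes, where the correction moved the median of all genes by 0.86, Ffar2 was at 1.69 and Adora1 at 1.08. Between the diets in Mof+/-, where it moved the median by 0.68, they were at 1.24 and 0.96, and no receptor was called in either comparison. Without TMM, by library totals alone, the median of all genes between the genotypes moved by -0.35, and Ffar2 was at 1.29 and Adora1 at 0.08.

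**Figure D4:**
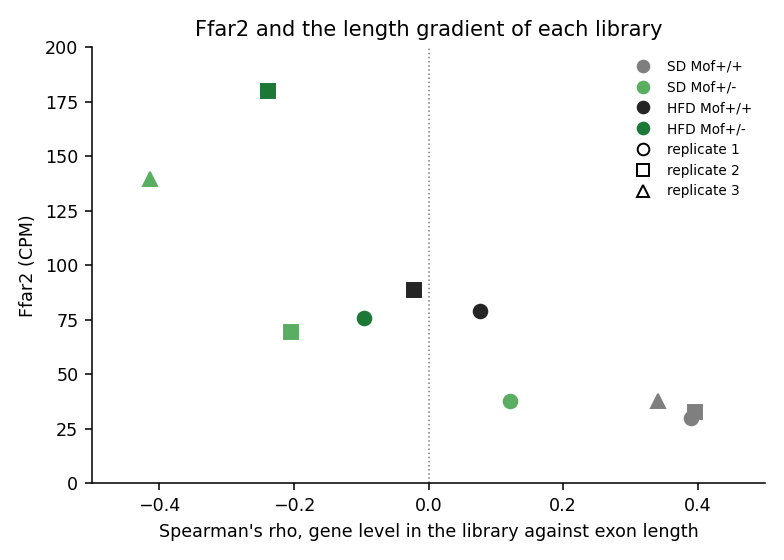
Ffar2 in CPM (vertical axis, linear from 0) against Spearman's rho between gene level and exon length in the same library (horizontal axis), 1 point for each of the 10 libraries. The SD Mof+/+ libraries are at rho 0.341 to 0.396 and 29.8 to 37.8 CPM, and SD Mof+/- replicate 3 is at rho -0.414 and 139.6 CPM.

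Between the genotypes on HFD, no receptor and no other gene passed the adjusted threshold in edgeR (0 of 6 members and 0% of 14120 genes), and no receptor had an unadjusted p under 0.05, which 12.3% of all genes had. DESeq2 called none of the 6 and 1.37% of all genes. Of the receptors, only Hcar1 had libraries that did not overlap, against 54.4% of all genes. Ffar4, Hcar1, Hcar2 and Adra2a had 0 counts in HFD Mof+/- replicate 1, whose small total puts the limit of 3 counts at 2.87 CPM.

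Ffar2 was at 79.1 and 88.9 CPM in HFD Mof+/+ and at 75.6 and 180.1 CPM in HFD Mof+/- (log2 fold change 0.90, SE 0.42, adjusted p = 0.546, edgeR). Hcar1 was at 37.6 and 36.2 CPM in Mof+/+ and at 0 and 32.0 CPM in Mof+/-. Ffar4 was at 17.4 and 10.1 CPM in Mof+/+ and at 0 and 38.3 CPM in Mof+/-. Replicate 2 of Mof+/- thus held the highest Ffar2 and Ffar4 levels of the HFD libraries and replicate 1 the lowest. The adipocyte markers ran the same way, at 53565 CPM in Mof+/- replicate 2, 20343 CPM in replicate 1 and 40311 and 36513 CPM in Mof+/+. Macrophage markers summed to 1294 and 2296 CPM in Mof+/- and to 4669 and 6110 CPM in Mof+/+, with values below 0 for 10 of 10 and none called, and Ffar2 amounted to 58.5 and 78.4 counts per 1000 of their counts in Mof+/-, against 16.9 and 14.5 in Mof+/+. Their part in the receptor values was not tested.

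Hcar2 was at 9.04 and 9.30 CPM in Mof+/+ and at 0 and 18.6 CPM in Mof+/-, and Adora1 was at 83.8 and 75.4 CPM in Mof+/+ and at 35.4 and 116 CPM in Mof+/-. For Adora1, Mybph had 18 and 15 counts in the HFD Mof+/- libraries, against 37 and 642 counts of Adora1. The log2 fold changes were 0.74 (SE 1.73, adjusted p = 0.918) for Ffar4, -0.92 (SE 1.53, adjusted p = 0.889) for Hcar1, 0.30 (SE 1.77, adjusted p = 0.970) for Hcar2 and 0.21 (SE 0.54, adjusted p = 0.924) for Adora1, all by edgeR. These values depended on which Mof+/- library was kept. Without replicate 1, Ffar2 (1.27), Ffar4 (1.65), Hcar2 (1.19) and Adora1 (0.71) were called higher and Hcar1 was at -0.04. Without replicate 2, Ffar2 was at 0.24, Adora1 was called lower (-0.77), and Ffar4, Hcar1 and Hcar2 were called lower against a single library at 0. These refits called 4 of the 6 receptors each, where 4326 of 15932 genes were called without replicate 1 and 7551 of 15761 without replicate 2. A lone library was assumed to vary like the others.

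In Mof+/- mice no receptor differed between the diets at the adjusted threshold (0 of 5 tested and 0% of 13610 genes in edgeR, and 0 of 5 with 3.53% of genes in DESeq2). Hcar1 had an unadjusted p under 0.05 in edgeR, as 8.57% of all genes had. It was at 121, 174 and 68.4 CPM on SD and at 0 and 32.0 CPM on HFD, so the HFD libraries were both lower, with a log2 fold change of -2.86 (SE 1.12, adjusted p = 0.539, edgeR). Without HFD Mof+/- replicate 1 it was -2.02, and without the filter on low counts Hcar1 was called (-2.89, adjusted p = 0.000415).

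Hcar2 was at 27.4, 36.6 and 40.7 CPM on SD and at 0 and 18.6 CPM on HFD in Mof+/- (log2 fold change -1.87, SE 1.11, adjusted p = 0.680, edgeR). Hcar1 and Hcar2 were thus the receptors whose libraries did not overlap between the diets in Mof+/-, against 27.6% of all genes. For Ffar2 the log2 fold change was 0.57 (SE 0.64, adjusted p = 0.873), for Ffar4 -0.97 (SE 1.15, adjusted p = 0.878) and for Adora1 0.46 (SE 0.52, adjusted p = 0.877), by edgeR, each with libraries that overlapped. Without HFD Mof+/- replicate 1, Hcar2 was at -1.03, Ffar4 at -0.08, Ffar2 at 0.98 and Adora1 at 0.99, none of them called. Without HFD Mof+/- replicate 2, Ffar2 was at -0.05 and Adora1 at -0.50. Ffar4, Hcar1 and Hcar2 were then at -11.38, -13.06 and -11.29, against a single library at 0, so that these values have no fixed size. Scaling to the adipocyte markers, which moved the median of all genes by 1.08, gave 1.82 for Ffar2, 1.48 for Adora1 and -0.35 for Ffar4, and none of these was called. The adipocyte markers summed to 65167 to 94034 CPM on SD and to 20343 and 53565 CPM on HFD in Mof+/-, with values below 0 for 11 of 12, as for 7 of 8 fibroblast and progenitor markers, and values above 0 for 13 of 13 skeletal muscle markers tested, none of them called. Their part in the receptor values was not tested. The comparisons of the diets in Mof+/+ and in Mof+/- shared no library.

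The genotype effect was also compared between the diets by an interaction term over all 10 libraries. Since Xist was found only in the SD Mof+/- libraries, sex cannot be told apart from this term. None of the 6 receptors was called in edgeR (adjusted p from 0.379 to 0.990) or in DESeq2, where 0.0881% and 3.35% of all genes were. In edgeR, 12.4% of genes and 1 of the 6 members had an unadjusted p under 0.05. That member was Adra2a (adjusted p = 0.379, edgeR), whose SD Mof+/- libraries were all at 0, so that its fitted value has no fixed size.

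Adra2a, the alpha-adrenergic receptor of the set, was at 0 or a few counts in most libraries. It had 47, 12 and 0 counts in SD Mof+/+, 0, 0 and 0 in SD Mof+/-, 4 and 20 in HFD Mof+/+ and 0 and 11 in HFD Mof+/-. Taking 3 counts as the limit that a count of 0 allows, which is lower than the upper end of the two-sided interval drawn in the plot of CPM by library, the level is up to 0.387 CPM in SD Mof+/+ replicate 3, up to 0.175, 0.288 and 0.446 CPM in replicates 1 to 3 of SD Mof+/-, and up to 2.87 CPM in HFD Mof+/- replicate 1. The counts were spread unevenly within both Mof+/+ groups. In HFD Mof+/- the limit of replicate 1 lies above the 1.99 CPM of replicate 2, so that no difference in level is shown there. Adra2a was tested between the diets in Mof+/+ (log2 fold change -1.62, SE 1.85, adjusted p = 0.619, edgeR) and between the genotypes on HFD (1.03, SE 1.24, adjusted p = 0.848), and did not reach the count needed in the other comparisons of groups. Single libraries set these values. Between the diets the log2 fold change was -0.01 without SD Mof+/+ replicate 1, -0.87 without HFD Mof+/+ replicate 1 and -3.11 without HFD Mof+/+ replicate 2, and on HFD it was 0.04 and 2.26 without HFD Mof+/+ replicates 1 and 2 and -6.04 without HFD Mof+/- replicate 2. 

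A list of 14 other receptors held those of like ligands or action, among them Adora2a, which binds adenosine like Adora1 but is coupled to Gs and so is not antilipolytic by its coupling. In each comparison of groups 7 of the 14 were tested. On SD, 2 of these 7 were called lower in Mof+/-, against 1.91% of all genes. They were Adora2a, at 33.0 to 41.1 CPM in Mof+/+ and 6.35 to 9.37 CPM in Mof+/- (log2 fold change -1.85, SE 0.34, adjusted p = 0.0319, edgeR), and Aplnr, the apelin receptor known from endothelial cells, at 60.0 to 209.9 CPM and 1.92 to 3.79 CPM (-5.20, SE 0.55, adjusted p = 0.00614). The endothelial marker sums were also lower in Mof+/- on SD, as given above, and their part in these values was not tested. Adora2a was also called lower on HFD in Mof+/+ (-1.50, SE 0.27, adjusted p = 0.0211), at 13.7 and 10.6 CPM. Aplnr was the only gene of the lists called for the interaction, apart from sex-linked genes and cell type markers (5.27, SE 0.77, adjusted p = 0.0341).

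Ffar3, which binds short-chain fatty acids like Ffar2, had 0 counts in all 10 libraries. Ffar1 and Gpr84 had at most 4.52 and 2.00 CPM in any library. Ptger3, the Gi-coupled prostaglandin E receptor, and Sucnr1, the succinate receptor, were expressed at 17.4 to 87.7 CPM and 17.2 to 109 CPM and were not called in any comparison. Npy1r was at 0 to 4.26 CPM.

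Of the lipolytic receptors, a list of Gs-coupled receptors, which raise cyclic AMP, and 1 receptor of natriuretic peptides, which acts through cyclic GMP, 2 of 8 tested were called lower on HFD in Mof+/+, against 3.73% of all genes, and none between the genotypes. Adrb3, the main beta-adrenergic receptor of mouse adipocytes, was at 482, 556 and 611 CPM in SD Mof+/+ and at 181 and 98.5 CPM in HFD Mof+/+. Its HFD libraries were far below its SD libraries (log2 fold change -1.85, SE 0.30, adjusted p = 0.0154, edgeR). Pth1r was called as well (-1.56, SE 0.37, adjusted p = 0.0452). In Mof+/- Adrb3 was at 457, 558 and 335 CPM on SD and at 89.1 and 152 CPM on HFD (-1.90, adjusted p = 0.294). Adrb1, another beta-adrenergic receptor, was at 0 to 5.604 CPM and was not called.

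Among 31 genes for G proteins, adenylyl cyclases, phosphodiesterases and protein kinase A, 3 were called lower and none higher in each of 2 comparisons. On HFD in Mof+/+ they were Pde3b, the phosphodiesterase through which insulin lowers cyclic AMP, which was at 232, 450 and 274 CPM on SD and 99.3 and 78.1 CPM on HFD (log2 fold change -1.73, SE 0.33, adjusted p = 0.0262, edgeR), Adcy4 (-1.84, adjusted p = 0.0451) and Adcy6 (-0.88, adjusted p = 0.0413). On SD in Mof+/- they were Adcy4 (-2.20, adjusted p = 0.0436), Grk2, a kinase that desensitizes receptors (-1.06, adjusted p = 0.0493), and Adcy8, whose Mof+/- libraries were all at 0 (adjusted p = 0.0476). The Gi subunits Gnai1, Gnai2 and Gnai3, through which the antilipolytic receptors signal, were not called in any comparison, with log2 fold changes on HFD in Mof+/+ of -0.59, 0.05 and -0.18. The cyclases Adcy3, Adcy5 and Adcy9 had 0.64, -0.27 and -1.44 there (adjusted p = 0.189, 0.569 and 0.0835). Of all genes tested, 3.73% were called lower on HFD in Mof+/+ and 1.91% on SD in Mof+/-.

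None of the 6 lipolysis effectors was called in any comparison. Pnpla2 and Lipe, the lipases for triglyceride and diglyceride, had log2 fold changes of -0.79 (adjusted p = 0.122) and -0.60 (adjusted p = 0.155) on HFD in Mof+/+, and Plin1, the lipid droplet coat protein that gates them, had -0.77 (adjusted p = 0.135), all by edgeR. G0s2, the inhibitor of Pnpla2, had -0.38 (adjusted p = 0.510). Lipe was at 1309.7 to 1744 CPM in SD Mof+/+ and at 1027 and 755 CPM in HFD Mof+/+.

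For the supply of ligands, 5 of 20 genes tested were called on HFD in Mof+/+, 2 higher and 3 lower, against 6.02% and 3.73% of all genes. Nt5e, which makes extracellular adenosine from AMP, was at 14.0, 8.63 and 24.5 CPM on SD and 1.42 and 0.687 CPM on HFD (log2 fold change -3.76, SE 0.69, adjusted p = 0.0231, edgeR). Entpd2 (-0.74) and the monocarboxylate transporter Slc16a7 (-1.10) were also called lower, and Maoa, a monoamine oxidase that degrades catecholamines, was among those called higher (0.92, adjusted p = 0.0450). For the ligand of Hcar1, Ldha, which makes lactate, had a log2 fold change of 0.26 (adjusted p = 0.438) on HFD in Mof+/+, and the lactate transporters Slc16a1 and Slc16a3 had -0.64 (adjusted p = 0.0626) and 2.10 (adjusted p = 0.0984).

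Ffar2 and Adora1 were the receptors detected in all 10 libraries, and the genes whose log2 CPM most resembled theirs among 15897 genes were looked up as a description. For Ffar2 these were Tmem160 (Pearson's r = 0.970), Mettl23 (0.969) and Sem1 (0.967), and for Adora1 they were Cpsf4 (0.952), Plod3 (0.943) and Hfe (0.940), each over 10 libraries. Without HFD Mof+/- replicate 1 the values were 0.969 to 0.972 for Ffar2 and 0.937 to 0.949 for Adora1. The points share depth, sex and the length gradient of the libraries, and the genes were picked as the highest of many.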

How the data were processed

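The mRNA-seq of 10 visceral WAT libraries was taken from raw counts per gene, which the authors deposited without normalization after mapping to GRCm38 with STAR and counting with featureCounts (Subread 1.5.0-p1 in their notes). The annotation release and strand setting are not given in the sources used here. Groups followed the sample labels. Groups were compared in edgeR 4.0.16 (quasi-likelihood test, TMM, filterByExpr, Benjamini-Hochberg over all genes tested, two-sided), fitted to the libraries compared, or to all 10 for the interaction. DESeq2 1.42.0 was an alternative. Intervals (exact Clopper-Pearson, 95%) and the limit of 3 counts cover counting error only. Exon lengths came from GENCODE M21 (47310 of 47937 identifiers matched, version ignored). Fits were run in R 4.3.3, and alternatives changed the scaling, filter, length correction, grouping and libraries kept. The members, gene lists and tests were chosen with earlier results of these data known. Named genes were the 6 members, list genes past the threshold, a fixed set of pathway genes and the 3 genes most like each member detected in every library. Some genes under this rule are not reported here. Scaling by library totals was added after seeing the data. Replicate numbers were not used to pair the libraries in the main fits. Correlations of deviations by replicate number were -0.0441 to 0.0285, which in groups this small cannot show whether pairs exist.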

Additional observations from a re-analysis of the deposited data

How the results depend on the processing

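Over 342 refitted values of single receptors, 326 kept their direction. For the interaction, only the values of Adra2a are among them. Of all genes called between the genotypes on SD (727), DESeq2 gave 2198, no filter 1840, scaling to adipocyte markers 5709, the replicate number as a block 428, all 10 libraries 194, length correction 372, the grouping by column headings 0 (232 at an unadjusted p under 0.05) and leaving out a library 17 to 1026; 0 members were called in edgeR (4 at an unadjusted p under 0.05), but 2 in DESeq2 and without the filter, and 0 to 1 without 1 library. On HFD, where 0 genes were called, DESeq2 gave 198, the replicate block 200, all 10 libraries 1, and leaving out a library 92 to 7551, with 0 to 4 members. Between the diets in Mof+/+ (1457 genes), DESeq2 gave 2967, all 10 libraries 142, scaling to adipocyte markers 789, the column headings 0 (1404 unadjusted) and leaving out a library 64 to 2230; of 2 members, all 10 libraries and the column headings left 0, and leaving out a library 0 to 2. In Mof+/- (0 genes), DESeq2 gave 470, no filter 429, the replicate block 245, all 10 libraries 189, adipocyte markers 126, length correction 68 and leaving out a library 0 to 2122; 1 member (Hcar1) was called without the filter and with the replicate block (-4.12), and 0 to 3 without 1 library. For the interaction (14 genes), DESeq2 gave 505, no filter 380, library totals 8, the column headings 0 (1402 unadjusted) and leaving out a library 4 to 3164, with 0 to 3 members. Directions turned on SD for Ffar2 (-0.58) and Adora1 (-0.51) with the column headings and for Ffar4 (-0.37), Hcar1 (-0.26) and Adora1 (-0.79) with adipocyte markers; on HFD for Ffar4 (-0.80) and Hcar2 (-1.17) with the replicate block, Hcar2 (-0.30) and Adora1 (-0.08) with adipocyte markers, Adora1 (-0.06) with library totals, and, without HFD Mof+/- replicate 2, for Ffar4 (-10.21), Hcar2 (-9.63), Adra2a (-6.04) and Adora1 (-0.77), whose highest values without 1 library were 1.65, 1.19, 2.26 and 0.71. In Mof+/- between the diets, leaving out HFD Mof+/- replicate 2 turned Ffar2 (-0.05, highest 1.28) and Adora1 (-0.50, highest 0.99). The replicate block moved Hcar2 between the diets in Mof+/+ from -0.80 to -0.31. In Mof+/- it gave Ffar2 1.25 and Ffar4 -2.44. Between the genotypes on HFD, length correction moved the median of all genes by 0.86. Fitted values against a library at 0 have no fixed size. The causes were not tested. Whether replicate numbers pair the libraries is not known, and the depth of HFD Mof+/- replicate 1 limits every comparison that holds it.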
